A study of Drosophila melanogaster with 15 samples.

Results

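Cytoplasmic ribosomal protein genes were followed in whole Drosophila melanogaster larvae of the third instar injected with bacteria or with saline. The set was taken by symbol: a probe set belonged to it when the platform annotation gave it exactly 1 gene symbol and that symbol began with RpL or RpS and a digit, or was RpLP0, RpLP1, RpLP2, sta or sop. This rule found 36 probe sets, for 36 genes, among 13966 probe sets that are not Affymetrix controls. The RefSeq gene table of the Release 6 assembly holds 92 protein-coding genes whose symbols fit the same rule, so the values below cover 36 of these and the other genes, sta among them, were not analysed here. By chromosome arm the 36 genes lie 8 on 2L, 8 on 2R, 4 on 3L, 13 on 3R and 3 on X. By name 21 symbols begin with RpL, for the large subunit, and 15 with RpS, for the small one. They were read as 27 housekeeping genes and 9 paralogs or like genes, that is extra copies and relatives that are known mainly from the germline or from ribosome assembly.

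There were 5 groups of 3 arrays. Larvae with the Relish allele E20, with the Dif allele 1 and with the dorsal allele 1 received E. coli in phosphate buffered saline (PBS), according to their treatment text, and wild type larvae received E. coli in PBS or PBS alone. Every group was injected with about 0.1 microliter, and RNA was taken 2 h later from pools of 20 larvae. The titles of the 9 mutant arrays hold the letters ctr, as those of the wild type PBS arrays do, and the text for the Dif arrays calls the injected animals controls; the agent named in the treatment text was followed here. That the remaining arrays are wild type comes from the study's design text. Mutants given PBS alone were not analysed here, so in a mutant a difference present before injection and a difference in the response to E. coli cannot be told apart. The alleles are carried by the whole animal, and in whole-larva RNA fewer cells of a type and less RNA per cell cannot be told apart.

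The cytoplasmic ribosome joins a small 40S subunit, which holds the messenger and reads its codons, to a large 60S subunit, which forms the peptide bond. Its protein genes are expressed in nearly all growing cells, and in flies many of them are Minute loci, where the loss of 1 copy delays development. In late larvae the growing polyploid tissues, fat body, gut and salivary gland, carry a heavy load of protein synthesis, and immune challenge adds secreted peptides to it. Relish, Dif and dorsal are the NF-kappaB factors of the fly, and several ribosomal protein transcripts, RpL32 above all, serve as the constant reference in measurements of their targets.

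Signals are given in units of Microarray Suite (MAS) version 5.0, where the authors scaled every array to 1 target, and each probe set has its own response, so levels are compared between arrays and not between probe sets. Differences refer to log2(signal + 80), tested with limma over 11427 probe sets that reached 160 units on at least 3 arrays. Of the 36 members 35 were tested. RpS28a, at 28.0 to 124.5 units, was not. The arrays had median signals of 245.5 to 340.5 units. Rel read 11.4 to 27.4 units on the Relish arrays and at least 373.5 on the other 12. Dif read 204.3 to 213.8 in its own mutant, below wild type with E. coli (246.0 to 338.3) and within the range of wild type with PBS (115.3 to 234.1). In its own mutant dl read 180.1 to 414.0, with overlap of both wild type groups.

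Housekeeping ribosomal protein signals moved together from array to array, and more within wild type than between the groups. On wild type PBS replicate 1, 26 of the 27 lay below their own mean over the 15 arrays, with a median deviation of -0.31 on the log2 scale, and on replicate 2 of the same group 25 lay above it, with a median of 0.32. Between these arrays the signals differed by a median ratio of 1.57, with RpL37A at 4.14 and RpS29, which ran the other way, at 0.62. By group the medians were -0.14, -0.05 and -0.13 in the Relish mutant, 0.10, -0.01 and -0.06 in the Dif mutant, 0.13, 0.15 and -0.06 in the dorsal mutant and, in wild type, -0.11, 0.27 and 0.05 with E. coli and -0.31, 0.32 and -0.02 with PBS. No group lay apart from all others on this measure, although 23, 16 and 26 of the 27 probe sets were below their own mean on the Relish arrays.

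The correlation of a housekeeping probe set with the median of the other 26 had a median of 0.79 over the 15 arrays, as a description of arrays that share their scaling. It was highest for RpL32 and RpL37-1 at 0.92, RpL3 at 0.91 and RpS30 at 0.90. RpLP0 at 0.02 and RpS29 at -0.39 did not follow the others.

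The mean signal over all probe sets was 1471.0 on wild type PBS replicate 1, the lowest of all arrays, and 1798.0 on replicate 2. The summed signal of 10 gut protease, lysozyme and amylase probe sets, all of which were tested, ranged from 847024 to 1027999 units in the Relish mutant, 914673 to 1000577 in the Dif mutant, 664255 to 894889 in the dorsal mutant, 563068 to 870772 in wild type with E. coli and 380811 to 781228 with PBS. Within the wild type PBS group this sum was lowest on replicate 1 and highest on replicate 2, as the housekeeping medians were. Over all wild type arrays the gut sum was highest on E. coli replicate 2, and the housekeeping median on PBS replicate 2. The Relish arrays had high gut sums and low medians. The 7 salivary glue probe sets, all tested, ran otherwise. They summed to 2789.7 to 399576 units in Relish, 44081 to 374945 in Dif, 292375 to 571739 in dorsal, 5693.9 to 234386 in wild type with E. coli and 62059.9 to 177479 with PBS. Sgs4, which is in these sums, read 13.0 to 57.9 units on the wild type arrays and 615.2 to 70675 on the mutant arrays. In wild type with E. coli the glue sum was highest on replicate 1, where the housekeeping median was low, and lowest on replicate 2, where that median was high. The 8 muscle probe sets, all tested, summed to 163781, 237025 and 211002 units on wild type PBS replicates 1, 2 and 3. With E. coli they summed to 218041, 300686 and 255459 in wild type. In both wild type groups the muscle sum rose in the replicate order of the housekeeping medians. In the dorsal mutant it did not, at 231889, 219794 and 231868. The part of these tissues in the ribosomal protein values was not tested. After quantile normalization, which gives every array the same distribution of values, the Relish arrays stood at -0.13, -0.17 and -0.10, below all other 12, whose lowest was -0.05. Wild type then stood at 0.06, 0.05 and 0.02 with E. coli and at -0.02, 0.10 and 0.08 with PBS.

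**Figure D1:**
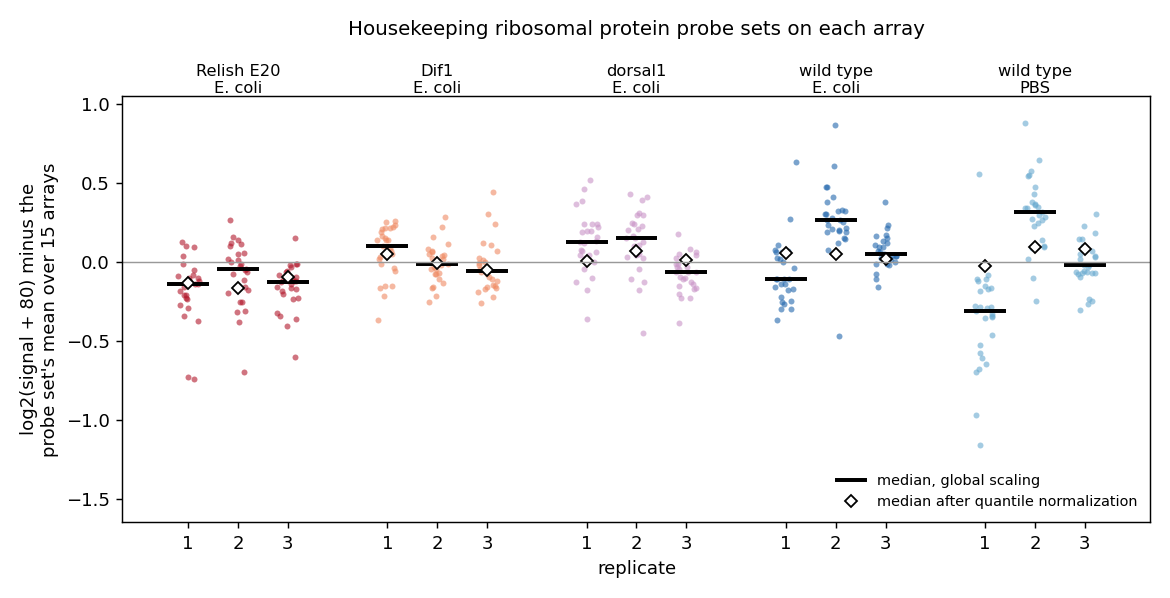
Each point is 1 of 27 housekeeping ribosomal protein probe sets, as log2(signal + 80) minus its mean over the 15 arrays, and arrays are ordered by group on the horizontal axis. Black bars are the medians as deposited, from -0.31 to 0.32 in wild type with PBS, and diamonds the medians after quantile normalization, where the 3 Relish arrays lie lowest.

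None of the 35 members tested differed among the 5 groups at an adjusted p under 0.05 by limma's moderated F test, where 7.31% of all probe sets tested did. At an unadjusted p under 0.05 there was 1, RpLP0 (F = 3.07, adjusted p = 0.194), against 23.9% of all probe sets. RpS27A (F = 2.47, adjusted p = 0.274), RpL37A (F = 2.44, adjusted p = 0.279), RpS19b (F = 1.92) and RpL7-like (F = 1.58) followed. At the other end stood RpS21, a small subunit protein whose loss is known to cause overgrowth of the blood-forming organs of the larva, with F = 0.05. RpS21 read 57917, 50009 and 53388 signal units in Relish E20 larvae, 59574, 56529 and 50176 in Dif1 larvae, 55840.3, 50290.3 and 57324 in dorsal1 larvae, and in wild type 48455, 63814 and 54682 with E. coli and 42373, 66516 and 50629.6 with PBS. The groups overlapped throughout.

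In wild type larvae no member was called between E. coli and PBS, where 0.158% of all probe sets were, none had an unadjusted p under 0.05 (4.73% of all), and none had groups without overlap (6.39% of all higher and 5.58% lower). The median log2 difference was 0.08 over the 35 members and 0.00 over all probe sets. Below 0 were 10 of 35 members and 49.9% of all probe sets, and 18 of 35 after quantile normalization. The median depended on single arrays, at -0.07 without PBS replicate 1, 0.20 without PBS replicate 2, 0.19 without E. coli replicate 1 and 0.01 without E. coli replicate 2. The interval of the difference lay within 2-fold in either direction for 28 of 35 members, against 40.8% of all probe sets. It lay within 1.5-fold for 14, against 5.44%. In each comparison the median standard error was 0.22 over members and 0.39 over all probe sets. Probe sets of like signal were not compared, so these shares do not set the members apart from other bright probe sets. RpL37A at 0.55 (SE 0.37, adjusted p = 1), RpS19b at 0.51 (SE 0.48) and RpL28 at 0.42 (SE 0.32) were the largest differences. RpS5b at -0.23 (SE 0.29), RpL24-like at -0.20 (SE 0.35), RpL22-like at -0.18 (SE 0.55) and RpL23 at -0.17 (SE 0.21) were the lowest, and none passed.

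The Relish mutant gave the most one-sided differences, without a call. Against wild type with E. coli 0 of 35 members were called, where 1.88% of all probe sets were. The difference was below 0 for 30 of 35 members, and for 43% of all probe sets, and for 26 of 35 members after quantile normalization. In 8 members (22.9%) all Relish arrays lay below all wild type E. coli arrays, against 7.71% of all probe sets, and in none did they lie above, against 11.7%. These 8 were RpL23, RpL32, RpL37A, RpL39, RpL40, RpLP2, RpS15 and RpS28b, and since housekeeping signals moved together over arrays they do not count as separate events. The median was -0.17 over members and 0.09 over all probe sets, and leaving out wild type E. coli replicate 1 gave -0.25 and leaving out its replicate 2 gave -0.12. RpL37A and RpS27A had an unadjusted p under 0.05, both lower, where 13.4% of all probe sets passed it. The interval lay within 2-fold for 29 of 35 (32.7% of all) and within 1.5-fold for 7 (4% of all). All 9 hemocyte marker probe sets were tested. They summed to 28164 to 34420 units on the Relish arrays, 13358 to 14873 on the Dif arrays, 13840.3 to 16631 on the dorsal arrays and 7249 to 11315 on the wild type E. coli arrays. On the wild type PBS arrays the sums were 9189 to 13878, with overlap of the Dif and dorsal sums. In Relish 2 of 9 rose, the prophenoloxidase genes PPO1 by 2.52 and PPO2 by 1.95 (adjusted p = 1.76e-05 and 0.00119). In Dif 2 rose, NimC1 by 1.98 and PPO1 by 1.15 (adjusted p = 0.0487 and 0.0166), and in dorsal 3 rose, Hml by 1.27, Pxn by 1.02 and PPO1 by 0.93 (adjusted p = 0.00291, 0.0297 and 0.0431). Over the 9 hemocyte probe sets the median difference was 0.45 in Relish, 0.47 in Dif and 0.75 in dorsal. The Relish mutant thus had the highest sums and the lowest median of the 3 mutants. The lowest hemocyte marker difference was that of lz, at -0.41 in Relish, -0.57 in Dif and -0.75 in dorsal, and no marker was called lower. The part of such cells in the members' values was not tested.

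In the Dif mutant differences from wild type with E. coli ran both ways. None of 35 members was called, where 2.68% of all probe sets were, and the median was -0.06 over members and 0.11 over all, or 0.005 and -0.14 with wild type E. coli replicate 2 or 1 left out. Below 0 were 21 of 35 members and 42% of all probe sets, and RpS19b alone had an unadjusted p under 0.05, where 15.7% of all did. Groups did not overlap for 6 members on the low side (17.1%, and 8.05% of all), namely RpL37A, RpL39, RpLP2, RpS18, RpS19b and RpS28b. On the high side there were 2 (5.71%, and 14.4% of all), RpL10Ab and RpLP0. The interval lay within 2-fold for 28 of 35 members (29.7% of all) and within 1.5-fold for 13 (3.3% of all).

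Of the 3 mutants dorsal had the median nearest to 0. None of 35 members was called, where 3.52% of all probe sets were, and the median was -0.01 over members and 0.10 over all. With wild type E. coli replicate 1 or 2 left out the median was -0.11 or 0.07. Below 0 were 19 of 35 members and 41.9% of all probe sets, and RpLP0 alone had an unadjusted p under 0.05, where 15.9% of all did. The interval lay within 2-fold for 29 of 35 (30.7% of all) and within 1.5-fold for 17 (3.43% of all). RpL10Aa lay above wild type without overlap (2.86%, and 13.3% of all), and RpLP0 and RpLP2 below it (5.71%, and 8.45% of all). Replicates 1 and 2 of this mutant carry the same number in their titles, as do replicates 2 and 3 of wild type with E. coli and of wild type with PBS. The housekeeping signals of these pairs differed by a median of 0.07, 0.21 and 0.33 on the log2 scale, where pairs with different numbers in a group differed by 0.10 to 0.66. The labels do not say whether arrays of 1 number share a culture or an extract.

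**Figure D2:**
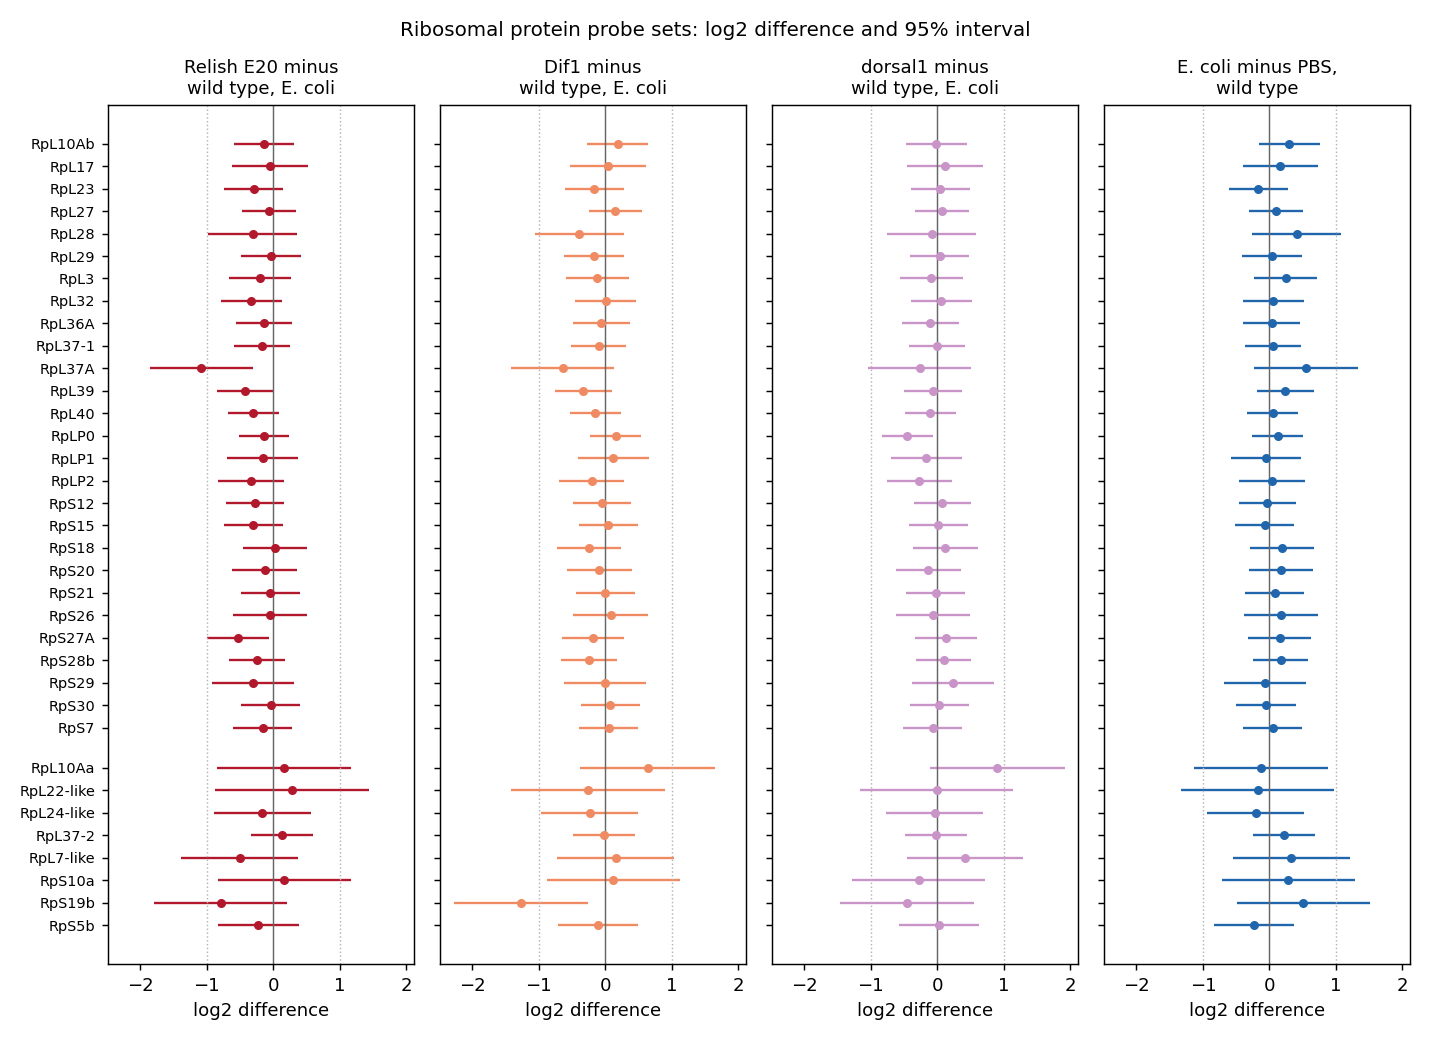
Log2 differences of the 35 members tested (points) with 95% intervals (lines), housekeeping genes above and paralogs or like genes below, for each mutant against wild type with E. coli and for E. coli against PBS in wild type. Dotted lines mark a 2-fold difference. Most housekeeping intervals include 0 and stay inside them, and RpL37A in the Relish mutant, at -1.08, reaches furthest among the housekeeping genes.

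Between the mutants no member was called either, where 1.15% of all probe sets were for Relish against Dif, 3.05% for Relish against dorsal and 5.18% for Dif against dorsal. Relish arrays lay below Dif arrays without overlap in 10 of 35 members (28.6%, and 8.96% of all), and above them in 2, RpL29 and RpS18 (5.71%, and 7.56% of all). They lay below dorsal arrays in 10 of 35 (28.6%, and 10.7% of all), and above them in RpLP0 (2.86%, and 9.72% of all). Members low against both were RpL32, RpL37A, RpL40 and RpS7. At an unadjusted p under 0.05 there were 0 members for Relish against Dif (12.9% of all), 3 for Relish against dorsal (16.6% of all), RpL37A, RpL7-like and RpS27A, and 1 for Dif against dorsal (20.6% of all), RpLP0. The 3 comparisons of the Relish mutant use the same 3 Relish arrays. Dif arrays lay above dorsal arrays in RpL10Ab, RpLP0, RpLP1 and RpS7 (11.4%, and 12.5% of all) and below them in RpS18 and RpS19b (5.71%, and 11.8% of all).

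The stalk proteins form the flexible arm of the large subunit that receives the translation factors, with RpLP0 as the base and RpLP1 and RpLP2 as dimers on it. RpLP0 read 44625, 50082 and 41913 signal units in Relish E20 larvae, 53419, 56418 and 57168 in Dif1 larvae, 35890.1, 33760.2 and 40101 in dorsal1 larvae, and in wild type 48727, 50174 and 50761 with E. coli and 42844, 49508 and 45161 with PBS. The dorsal arrays were the lowest and the Dif arrays the highest of all 15, without overlap with any other group. RpLP0 was the 1 member, of 35 tested, that stood below the other 12 arrays in the dorsal mutant (1.68% of all probe sets did) and the 1 above them in the Dif mutant (2.04% of all). Its spread within groups was the lowest of all members at 0.10 on the log2 scale. The difference of Dif from dorsal was 0.61 (SE 0.18, 95% interval 0.23 to 0.99, adjusted p = 0.06), just outside the threshold. It passed under 5 of 18 alternatives, among them quantile normalization (0.68, adjusted p = 0.0228) and leaving out dorsal replicate 3 (0.68, adjusted p = 0.0471), and the highest adjusted p was 0.231. Against wild type with E. coli the dorsal mutant read -0.45 (SE 0.18, 95% interval -0.83 to -0.07, adjusted p = 0.215) and the Dif mutant 0.16 (SE 0.18, adjusted p = 0.718).

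RpLP1 read 60119, 67321 and 63869.9 signal units in Relish E20 larvae, 82749, 81098 and 68679.5 in Dif1 larvae, 63574, 61348 and 65018 in dorsal1 larvae, and in wild type 53766, 85724 and 77390.3 with E. coli and 54816, 108982 and 66170.0 with PBS. PBS replicate 2 was the highest, and the dorsal arrays lay below the Dif arrays. The dorsal difference from wild type was -0.16 (SE 0.25, adjusted p = 0.82) and that of Dif from dorsal 0.29 (SE 0.25, adjusted p = 0.562). RpLP2 read 45596, 52749 and 45819 signal units in Relish E20 larvae, 54445, 53706 and 49377 in Dif1 larvae, 47549, 49135 and 53894 in dorsal1 larvae, and in wild type 54485, 64111 and 63172 with E. coli and 39044, 78344 and 66256 with PBS. Each mutant had its 3 arrays below the wild type E. coli arrays, with differences of -0.33 (SE 0.23, adjusted p = 0.587) for Relish, -0.20 (SE 0.23, adjusted p = 0.718) for Dif and -0.27 (SE 0.23, adjusted p = 0.636) for dorsal. These share the wild type arrays, and PBS replicate 1 read lower than all of them.

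RpL37A, a zinc-binding protein of the large subunit, varied most among the housekeeping members, by 4.14-fold over the arrays. RpL37A read 33336, 42884 and 36725 signal units in Relish E20 larvae, 49839, 54949.8 and 47863 in Dif1 larvae, 80102, 75259 and 47588 in dorsal1 larvae, and in wild type 67468, 101821 and 72556 with E. coli and 24874, 102986 and 61799.9 with PBS. The Relish arrays were below all arrays of the other groups except PBS replicate 1. The Relish difference from wild type with E. coli was -1.08 (SE 0.37, 95% interval -1.86 to -0.30, adjusted p = 0.178), and over 18 alternatives it lay between -1.20 and -0.90 with adjusted p from 0.0406 to 0.428. Dif larvae read -0.64 (SE 0.37, adjusted p = 0.418) and dorsal larvae -0.27 (SE 0.37, adjusted p = 0.794). The E. coli difference of 0.55 in wild type was -0.01 without PBS replicate 1 and 1.01 without PBS replicate 2.

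**Figure D3:**
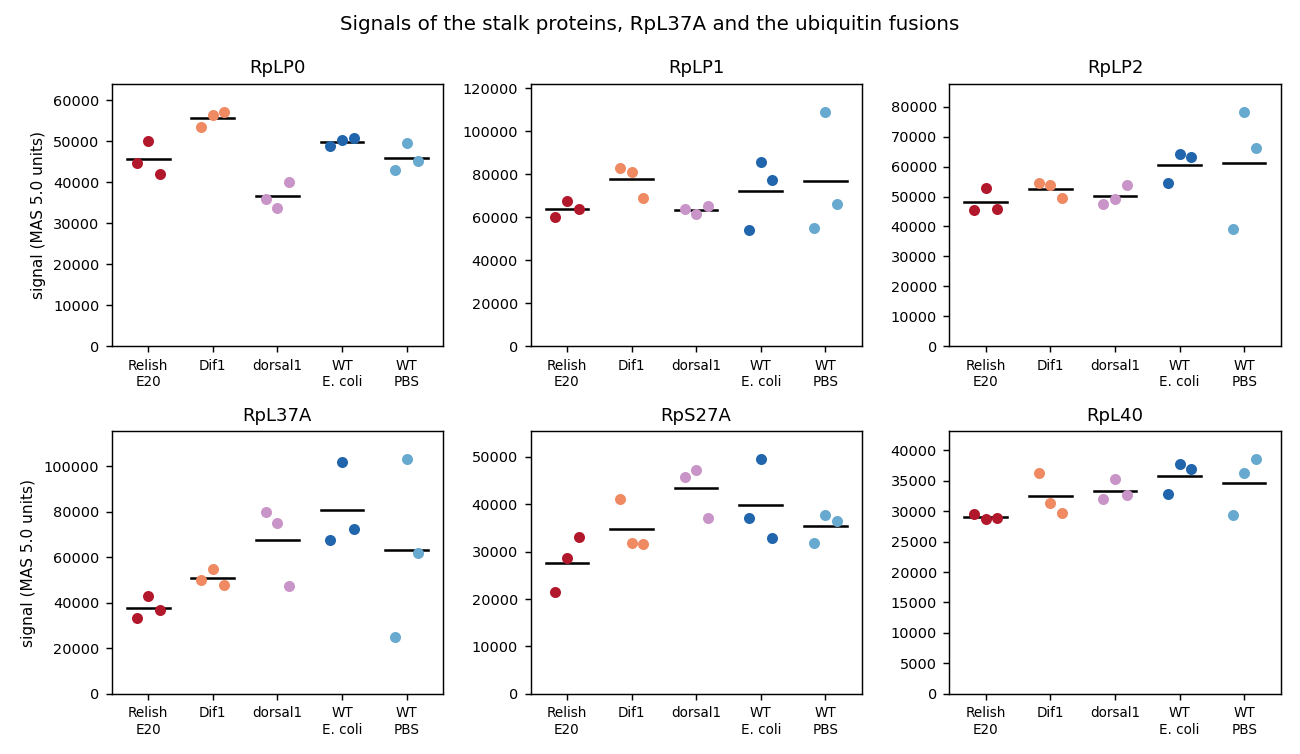
Signals of 6 members by array, in MAS 5.0 units, with the 5 groups on the horizontal axis, points for the 3 replicates of each and bars for their mean. RpLP0 is lowest in the dorsal mutant, at 33760 to 40101 units, and highest in the Dif mutant, at 53419 to 57168, while RpL37A spreads from 24874 to 102986 within wild type.

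RpL40 and RpS27A are made as fusions to ubiquitin, which is cut off to supply both a ribosomal protein and free ubiquitin. RpS27A read 21415, 28588 and 33079 signal units in Relish E20 larvae, 41207, 31811 and 31536 in Dif1 larvae, 45808, 47239 and 37065 in dorsal1 larvae, and in wild type 37015, 49447 and 32978 with E. coli and 31871, 37682 and 36366 with PBS. Relish replicates 1 and 2 were the lowest of all arrays, and replicate 3 overlapped with wild type. The Relish difference from wild type was -0.52 (SE 0.22, 95% interval -0.99 to -0.06, adjusted p = 0.302), with -0.35 when Relish replicate 1 and -0.36 when wild type E. coli replicate 2 was left out, and from dorsal -0.66 (SE 0.22, adjusted p = 0.126). RpL40 read 29466, 28728 and 28873 signal units in Relish E20 larvae, 36235, 31286 and 29710.2 in Dif1 larvae, 31925, 35209.5 and 32569.8 in dorsal1 larvae, and in wild type 32869.9, 37746 and 36909 with E. coli and 29296, 36266 and 38479.8 with PBS. All Relish arrays lay below the wild type E. coli arrays, with a difference of -0.30 (SE 0.18, adjusted p = 0.515), and the signal varied by 1.34-fold over all arrays, the least of any member.

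Among other large subunit proteins RpL32, the usual reference transcript, was examined in full. RpL32 read 51136, 49548 and 47146 signal units in Relish E20 larvae, 68496, 61308 and 56632 in Dif1 larvae, 66039.8, 69902 and 57737 in dorsal1 larvae, and in wild type 52194, 73839 and 61080.4 with E. coli and 48318, 75889.7 and 56832 with PBS. The Relish arrays lay below those of the other groups with E. coli, while PBS replicate 1 lay among the Relish values. Its differences were -0.33 (SE 0.22, 95% interval -0.78 to 0.13, adjusted p = 0.565) for Relish, 0.01 (SE 0.22, 95% interval -0.45 to 0.46, adjusted p = 0.995) for Dif, 0.06 (SE 0.22, 95% interval -0.40 to 0.52, adjusted p = 0.93) for dorsal and 0.06 (SE 0.22, 95% interval -0.40 to 0.52, adjusted p = 1) for E. coli against PBS. Within the 3 wild type PBS arrays alone it spanned 48318 to 75890 units, a wider span than that between any 2 group means. The means were 49276 ± 2009 in Relish, 62145 ± 5976 in Dif, 64559 ± 6216 in dorsal, 62371 ± 10880.1 in wild type with E. coli and 60347 ± 14118 with PBS (SD, n = 3 each).

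RpL39 and RpL17 line the exit tunnel of the nascent chain. RpL39 read 28159, 24196 and 26234 signal units in Relish E20 larvae, 27154, 25956 and 30501 in Dif1 larvae, 35729.8, 34919 and 29941 in dorsal1 larvae, and in wild type 32476, 42056 and 31175 with E. coli and 23699, 37595 and 28857 with PBS. All Relish and all Dif arrays were below the wild type E. coli arrays, with differences of -0.42 (SE 0.21, adjusted p = 0.395) and -0.33 (SE 0.21, adjusted p = 0.463), and dorsal read -0.06 (SE 0.21, adjusted p = 0.923). RpL17 read 66426, 79723 and 69134 signal units in Relish E20 larvae, 85586, 74716 and 68733 in Dif1 larvae, 84161, 79849.8 and 75901 in dorsal1 larvae, and in wild type 59629, 97390.0 and 69367 with E. coli and 45226, 101889 and 61645 with PBS. Here the groups overlapped, and the PBS arrays spanned all others. RpL17 differed by -0.05 (SE 0.27, adjusted p = 0.967) in Relish, and by less than its standard error in each of the 4 main comparisons.

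RpL3, which reaches the peptidyl transferase centre, kept the pattern of the array medians. RpL3 read 60656, 69318 and 61555 signal units in Relish E20 larvae, 68337, 68577 and 64840.0 in Dif1 larvae, 72866, 74322 and 60076 in dorsal1 larvae, and in wild type 62032, 83638 and 75109 with E. coli and 46248, 79396 and 63229 with PBS. The lowest array was PBS replicate 1, and the Relish difference was -0.20 (SE 0.22, adjusted p = 0.766). RpL10Ab, of the mobile L1 stalk, was high on the Dif arrays. RpL10Ab read 46949, 64213 and 52560.5 signal units in Relish E20 larvae, 64457, 62291 and 78257 in Dif1 larvae, 59346, 59526 and 58635 in dorsal1 larvae, and in wild type 60332, 60568 and 58184 with E. coli and 37662, 61459 and 48835 with PBS. All Dif arrays lay above all wild type E. coli and all dorsal arrays, with differences of 0.19 (SE 0.22, adjusted p = 0.719) and 0.20 (SE 0.22, adjusted p = 0.65). In PBS replicate 1 it was lowest.

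RpL28 and RpL23 are further large subunit proteins. RpL28 read 23209.5, 35345 and 26976 signal units in Relish E20 larvae, 22757, 30857 and 26377 in Dif1 larvae, 40541, 38549.8 and 22448 in dorsal1 larvae, and in wild type 27283, 44802 and 34088 with E. coli and 14987, 37895 and 30824 with PBS. The Dif difference was -0.39 (SE 0.32, adjusted p = 0.588), with overlap. RpL23 read 25248, 25405 and 22282 signal units in Relish E20 larvae, 28420.5, 25615 and 25634 in Dif1 larvae, 32944, 35566 and 24452 in dorsal1 larvae, and in wild type 26068, 33263 and 30095 with E. coli and 27150.3, 42876 and 31697 with PBS. Relish arrays lay below wild type E. coli arrays, at -0.29 (SE 0.21, adjusted p = 0.611), and Relish replicate 3 was the lowest of all 15. RpL27, RpL29, RpL36A and RpL37-1 were steadier, with their highest array over the lowest at 1.43, 1.62, 1.59 and 1.42, and differences from wild type with E. coli between -0.17 and 0.16 in the mutants.

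In the small subunit RpS20 belongs to the head and RpS26 lies near the exit of the messenger. RpS20 read 75938, 77498 and 73509 signal units in Relish E20 larvae, 80544, 74265 and 78105 in Dif1 larvae, 78244, 77995 and 69710.2 in dorsal1 larvae, and in wild type 80138, 92391 and 75807 with E. coli and 51354, 100053 and 75746 with PBS. RpS26 read 76554, 80128 and 66876 signal units in Relish E20 larvae, 89469.9, 83297 and 72285 in Dif1 larvae, 78142, 76239 and 66432 in dorsal1 larvae, and in wild type 66163, 92408 and 73990.4 with E. coli and 47604, 109414 and 60332 with PBS. Both were lowest on PBS replicate 1 and highest on PBS replicate 2, and their differences in the 4 main comparisons were between -0.13 and 0.18. RpS15, a protein of the small subunit head, had its Relish arrays below the wild type E. coli arrays without overlap, with -0.30 (SE 0.21, adjusted p = 0.594). RpS7, RpS12, RpS18 and RpS30 stayed within -0.27 and 0.19 in these comparisons, and RpS18 was the 1 housekeeping member with a difference above 0 in the Relish mutant, at 0.03 (SE 0.23, adjusted p = 0.977).

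RpS28b and RpS29 departed from the common movement. RpS28b read 40772, 37224 and 43943 signal units in Relish E20 larvae, 43244, 41258 and 37091 in Dif1 larvae, 58106, 54659 and 42417 in dorsal1 larvae, and in wild type 45263, 51475 and 47372 with E. coli and 41274, 37358 and 50389 with PBS. Relish and Dif arrays were below the wild type E. coli arrays, at -0.24 (SE 0.20, adjusted p = 0.661) and -0.25 (SE 0.20, adjusted p = 0.583), and dorsal replicates 1 and 2 were the highest of all. RpS29 read 1355, 1070.0 and 1984 signal units in Relish E20 larvae, 1524, 1765 and 2125 in Dif1 larvae, 2091, 2212 and 2026 in dorsal1 larvae, and in wild type 2809, 1266 and 1589 with E. coli and 2663, 1657 and 1466 with PBS. Its highest arrays were E. coli replicate 1 and PBS replicate 1 of wild type. On these, 17 and 26 of the 27 housekeeping members lay below their own mean. Its differences were -0.31 (SE 0.29, adjusted p = 0.706) in Relish, 0.00 (SE 0.29, adjusted p = 0.998) in Dif and 0.23 (SE 0.29, adjusted p = 0.764) in dorsal.

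Of the 9 probe sets of paralogs and like genes 8 were tested, none was called, and RpS28a reached 160 units on no array. RpL37-2, RpS5b, RpL24-like and RpL7-like did so on all 15 arrays, RpS10a on 11, RpL10Aa and RpL22-like on 8 and RpS19b on 7. The low arrays of the last 4 lie below the level of the filter, down to 7.9 units in RpL10Aa. Their median standard error was 0.45, against 0.21 for the 27 housekeeping genes. Passing the filter through a few high arrays favours a difference. The counts of 35 above include these 8, among them RpS19b in Dif and RpL10Aa in dorsal without overlap, and for this reason serve as description only.

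RpS5b, the copy of RpS5a known from the ovary, overlapped between all groups except Relish and dorsal. RpS5b read 1357, 959.7 and 1246 signal units in Relish E20 larvae, 1481, 1714 and 817.4 in Dif1 larvae, 1400.5, 1416 and 1414 in dorsal1 larvae, and in wild type 1050.2, 1595 and 1583 with E. coli and 1132, 1718 and 2263 with PBS. The dorsal arrays were nearly equal, all above the Relish arrays, and the difference of Relish from dorsal was -0.25 (SE 0.29, adjusted p = 0.74). RpL37-2 varied least of the paralogs, by 1.75-fold over the arrays, and its housekeeping partner RpL37-1 varied by 1.42-fold. The Relish differences from wild type of the pair were 0.14 (SE 0.22, adjusted p = 0.848) for RpL37-2 and -0.17 (SE 0.20, adjusted p = 0.776) for RpL37-1.

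RpS19b, a copy of RpS19a, had the lowest difference of all members in the Dif mutant. RpS19b read 114.7, 141.6 and 286.8 signal units in Relish E20 larvae, 115.6, 84.9 and 100.2 in Dif1 larvae, 411.2, 234.6 and 126.1 in dorsal1 larvae, and in wild type 638.4, 398.0 and 157.7 with E. coli and 185.2, 478.7 and 110.2 with PBS. All Dif arrays lay below all wild type E. coli arrays and all dorsal arrays, at -1.27 (SE 0.48, 95% interval -2.27 to -0.27, adjusted p = 0.186) against wild type, and -0.91 with wild type E. coli replicate 1 left out. Relish larvae read -0.79 (SE 0.48, adjusted p = 0.516) and dorsal larvae -0.45 (SE 0.48, adjusted p = 0.712). The 18 male germline genes listed had 19 probe sets, of which 14 were tested. All 19 together had summed signals of 14064 to 17831 units in Relish, 8821 to 14441 in Dif, 12853 to 20247 in dorsal, 7979 to 19272 in wild type with E. coli and 7818 to 12673 with PBS. The array with the highest sum was also highest in RpS19b in the Dif and wild type E. coli groups, and not in the Relish, dorsal and PBS groups. The part of germline cells in RpS19b was not tested.

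RpL10Aa, a copy of RpL10Ab, was high in the dorsal mutant. RpL10Aa read 12.9, 140.3 and 173.5 signal units in Relish E20 larvae, 187.2, 99.9 and 211.2 in Dif1 larvae, 189.1, 226.6 and 215.5 in dorsal1 larvae, and in wild type 179.2, 25.9 and 55.5 with E. coli and 145.8, 7.9 and 161.4 with PBS. The dorsal arrays lay above all other groups' arrays except 1 Dif array, at 0.90 (SE 0.48, 95% interval -0.11 to 1.92, adjusted p = 0.381) against wild type with E. coli. It was 0.63 with wild type E. coli replicate 2 left out and 1.72 with no pseudocount, since wild type replicates 2 and 3 lie below the pseudocount. RpL22-like, the testis-enriched relative of RpL22, ran from 41.5 to 446.9 units with overlap of all groups, and read 0.28 (SE 0.55, adjusted p = 0.876) in Relish. RpS10a ran from 52.5 to 457.6 units and read -0.28 (SE 0.47, adjusted p = 0.843) in dorsal.

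RpL7-like and RpL24-like are relatives of the yeast assembly factors Rlp7 and Rlp24 rather than parts of the mature ribosome. RpL7-like read 989.4, 898.9 and 224.1 signal units in Relish E20 larvae, 1502, 1024 and 641.9 in Dif1 larvae, 1008, 1144 and 1535 in dorsal1 larvae, and in wild type 650.0, 829.6 and 1290.1 with E. coli and 547.4, 911.9 and 653.9 with PBS. The dorsal arrays lay above the Relish arrays, where replicate 3 was the lowest of all, and the difference of Relish from dorsal was -0.92 (SE 0.42, adjusted p = 0.273). RpL24-like ran from 311.3 to 1002 units, overlapped between all groups and differed by at most 0.23 in the 4 main comparisons. RpS28a read 79.4, 86.6 and 62.8 signal units in Relish E20 larvae, 71.7, 62.4 and 51.3 in Dif1 larvae, 124.5, 54.0 and 82.0 in dorsal1 larvae, and in wild type 30.3, 47.3 and 45.9 with E. coli and 41.0, 46.1 and 28.0 with PBS. These values of RpS28a, mutant arrays above wild type ones, lie mostly below the pseudocount and were not tested.

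**Figure D4:**
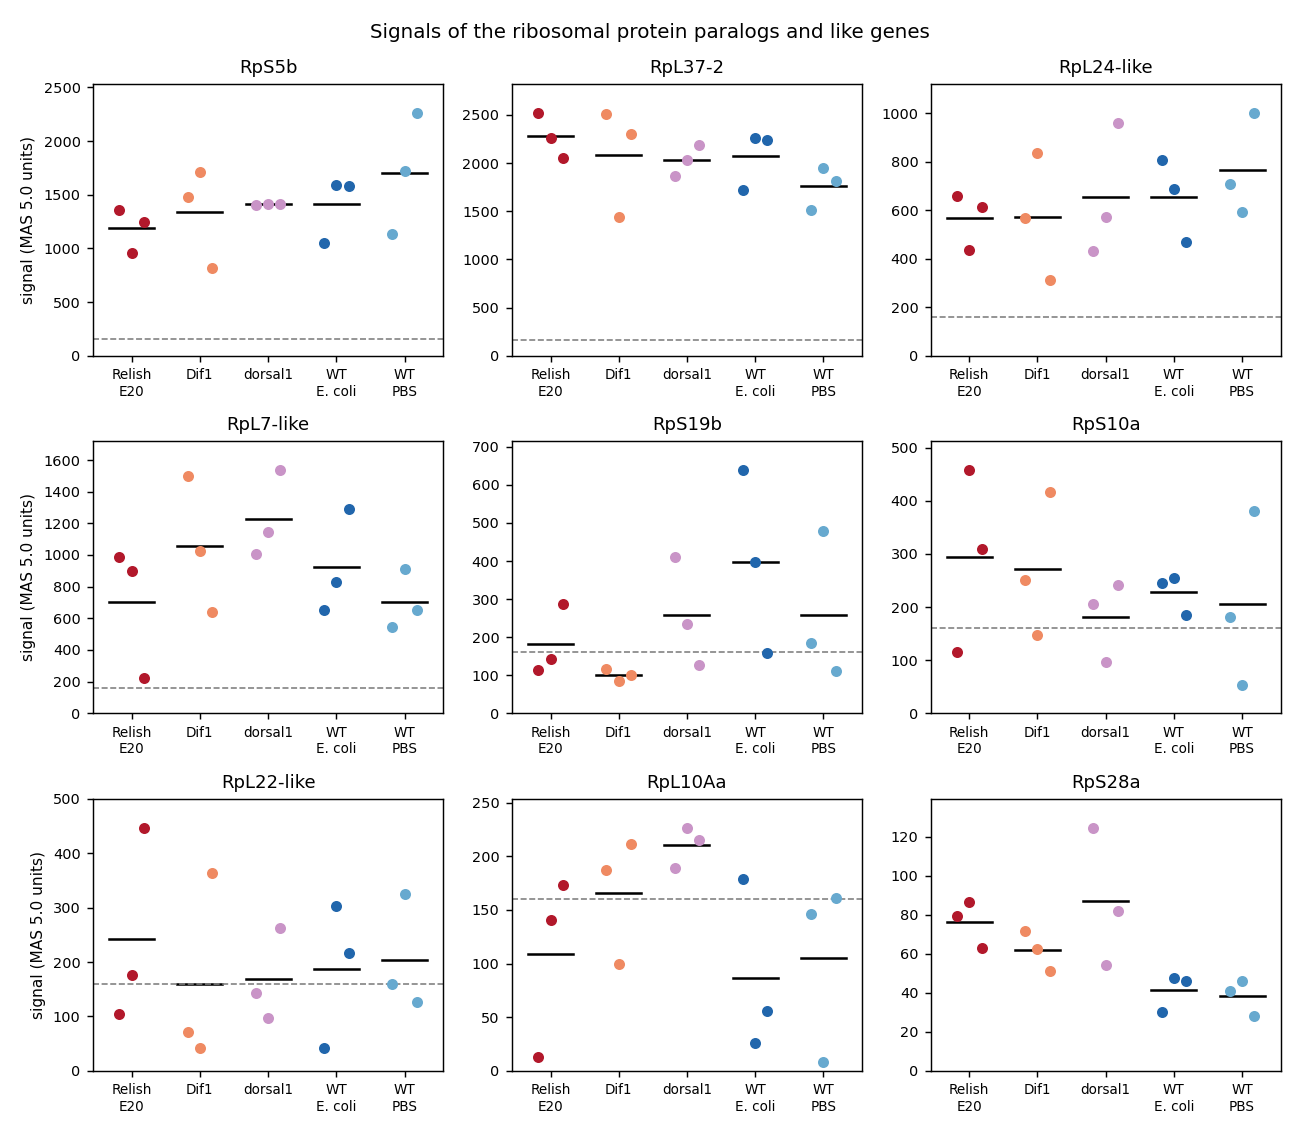
Signals of the 9 paralogs and like genes by array, in MAS 5.0 units, with the 5 groups on the horizontal axis, points for the 3 replicates and bars for their mean; the dashed line is the 160 units of the filter. RpS19b is low on all Dif arrays, at 84.9 to 115.6 units, and RpL10Aa high on all dorsal arrays, at 189.1 to 226.6.

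Genes that act with the ribosome were described from lists chosen with earlier results known. Of 44 probe sets of translation factors, 0 were called between E. coli and PBS. Against wild type with E. coli 1 was higher and 2 lower in Relish, 2 were higher in Dif and 1 was higher in dorsal. Of all probe sets tested 0.158%, 1.88%, 2.68% and 3.52% were called in these comparisons. The list medians were 0.01, -0.05, 0.05 and 0.05 in that order, where those of all probe sets were 0.00, 0.09, 0.11 and 0.10. Both calls on the low side were subunits of eIF3, the factor that binds the 40S subunit. eIF3c read 1018, 1022 and 1276 signal units in Relish E20 larvae, 1999.6, 1646 and 1939 in Dif1 larvae, 2929, 2437 and 2328 in dorsal1 larvae, and in wild type 2377, 2199 and 2387 with E. coli and 2304, 3115 and 2616 with PBS. The Relish arrays were below all others, and eIF3c fell by 1.02 (SE 0.19, adjusted p = 0.00715) against wild type with E. coli.

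eIF3d1 read 3051, 3862 and 2279 signal units in Relish E20 larvae, 4001, 5291 and 6043 in Dif1 larvae, 4266, 3551 and 5271 in dorsal1 larvae, and in wild type 6297, 6344 and 6587 with E. coli and 5231, 6708 and 5926 with PBS. Relish replicates 1 and 3 were the lowest, and replicate 2 read above 1 dorsal array. eIF3d1 fell by 1.08 (SE 0.22, adjusted p = 0.0136) in Relish against wild type with E. coli, a call lost when Relish replicate 1 (adjusted p = 0.0517), Relish replicate 3 (adjusted p = 0.0719) or replicate 3 of the wild type E. coli group (adjusted p = 0.0686) was left out. Read relative to the ribosomal protein members, eIF3c was at -0.87 (adjusted p = 0.0579) and eIF3d1 at -0.92 (adjusted p = 0.0785). In all, eIF3c lost its call under 3 of 18 alternatives and eIF3d1 under 6 of 18.

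eIF5B, the GTPase that joins the subunits, had 3 probe sets that disagreed. Its probe set with called differences read 2617, 2787 and 4193 signal units in Relish E20 larvae, 3341, 2973 and 2971 in Dif1 larvae, 1964, 1412 and 2846 in dorsal1 larvae, and in wild type 1047, 857.0 and 548.8 with E. coli and 759.6, 748.7 and 885.2 with PBS. Every mutant array lay above every wild type array. It rose by 1.88 (SE 0.27, adjusted p = 6.21e-04) in Relish, 1.86 (SE 0.27, adjusted p = 7.29e-04) in Dif and 1.25 (SE 0.27, adjusted p = 0.0155) in dorsal, where the last call was lost when dorsal replicate 3 (adjusted p = 0.0596) or replicate 3 of wild type with E. coli (adjusted p = 0.109) was left out. In all, this dorsal call was lost under 6 of 18 alternatives, with an adjusted p of up to 0.132. The other probe sets of eIF5B read 0.06 and -0.29 in Relish, -0.44 and -0.57 in Dif and 0.05 and -0.65 in dorsal, none called, so the gene's own direction is uncertain. The release factor gene eRF3 rose by 0.82 (SE 0.21, adjusted p = 0.0457) in Dif and lost that call under 11 of 18 alternatives.

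Of 27 probe sets of nucleolar, ribosomal RNA synthesis and assembly genes none was called in the 4 main comparisons, with medians of -0.12 for E. coli against PBS, 0.04 for Relish, 0.09 for Dif and 0.20 for dorsal. They ran from -1.46 for the exosome gene Rrp4 in Relish to 1.21 for Mybbp1A in Dif. In the same order of comparisons 0.158%, 1.88%, 2.68% and 3.52% of all probe sets tested were called. Of 25 probe sets of growth regulators, such as Myc, Tor and S6k, 1 was called in the 4 main comparisons, M1BP, which binds the promoters of many ribosomal protein genes in flies. M1BP read 983.2, 859.2 and 934.4 signal units in Relish E20 larvae, 1294, 1107 and 736.5 in Dif1 larvae, 1377, 1513 and 1370.1 in dorsal1 larvae, and in wild type 849.4, 760.7 and 677.6 with E. coli and 1515, 1224 and 1223 with PBS. M1BP rose by 0.84 (SE 0.23, adjusted p = 0.0493) in dorsal against wild type with E. coli, and it kept that call under 3 of 18 alternatives. The wild type arrays with E. coli read below those with PBS, at -0.73 (SE 0.23, adjusted p = 0.543), and another probe set of M1BP read 0.57 in dorsal without a call.

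Mitochondrial ribosomal proteins, the separate set that translates the genes of the organelle, had 65 tested probe sets. In the 4 main comparisons 0 were called for E. coli against PBS, for Relish and for Dif, and 1 was lower in dorsal, mRpL55. The shares of all probe sets called were 0.158%, 1.88%, 2.68% and 3.52%. mRpL55 read 2025, 2364 and 1543 signal units in Relish E20 larvae, 1362, 1515 and 1521 in Dif1 larvae, 747.7, 967.2 and 723.2 in dorsal1 larvae, and in wild type 1340.3, 2715 and 2383 with E. coli and 1519, 3036 and 2169 with PBS. The dorsal arrays were below all others, and mRpL55 fell by 1.27 (SE 0.28, adjusted p = 0.0179), a call lost when dorsal replicate 1 (adjusted p = 0.0641) or replicate 2 or 3 of wild type with E. coli (adjusted p = 0.106 and 0.103) was left out. In all, mRpL55 lost its call under 7 of 18 alternatives, with an adjusted p of up to 0.2. List medians were -0.19 for E. coli against PBS, -0.07 for Relish, 0.09 for Dif and -0.22 for dorsal, beside the cytoplasmic medians of 0.08, -0.17, -0.06 and -0.01.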

How the data were processed

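Whole-larva RNA of 15 samples had been hybridised to the first Affymetrix genome array for Drosophila. The deposited values are signal intensities on a linear scale, 1 per probe set, which the authors made with Microarray Suite (MAS) version 5.0 at default settings with global scaling, per the labels; the submitters' processing notes name MAS5. The trimmed mean, leaving out 2% at each end, was 800.2 to 800.25 on every array. No detection calls were used. Scaling to a common mean makes each value relative to the whole array. Sequencing depth does not apply to arrays, and 3 per group limit the precision.

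Symbols came from the platform annotation, looked up by Entrez identifier in RefSeq. Of 13966 non-control probe sets 12443 had 1 symbol, 327 several and 1196 none. A further 2 probe sets with several symbols include a ribosomal protein and were not used. The members and lists were chosen with earlier results of these data known.

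Group means of log2(signal + 80) over all 15 arrays were compared with limma 3.58.1 under R 4.3.3. It used lmFit, then eBayes with trended variance, and 10 residual degrees of freedom. The filter removed 2539 probe sets. Tests were two-sided, with Benjamini-Hochberg adjustment over the probe sets tested. The 95% intervals come from the same fit. The procedure was tested on simulated data in which each probe set varied independently. Housekeeping members moved together over the arrays, so that test does not show how readily members would be called.

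Members described singly were called ones, the 4 highest and 4 lowest of each of the 4 main comparisons, the 5 of highest mean signal and of highest F, and the paralogs with their partners; RpL27, RpL29, RpL32, RpL36A, RpL40, RpS7, RpS12, RpS15, RpS18, RpS21 and RpS30 were added after their values were seen. Whether replicate pools were grown apart is not stated in the labels, so p-values reflect only how these samples vary, which may be technical. Alternatives were another pseudocount, no filter, a filter at 320 units, quantile normalization, no variance trend, array weights and the compared groups alone. Further ones were a replicate block, arrays of 1 title number averaged, 1 probe set per gene and each array left out. Chosen after seeing the data were no pseudocount, values relative to the members' median, and the wild type PBS group without replicates 1 and 2. No sequences or coordinates are printed.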

Additional observations from a re-analysis of the deposited data

How the results depend on the processing

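No member was called between E. coli and PBS, in Dif or dorsal against wild type, or in Relish against Dif or dorsal, under any alternative run. In Relish against wild type 1 member, RpL37A, was called with only the compared groups in the fit (adjusted p = 0.0475) and 1, again RpL37A, with the replicate block (adjusted p = 0.0406). In Dif against dorsal 1 member, RpLP0, was called under the filter at 320 units (adjusted p = 0.0368), quantile normalization, array weights (adjusted p = 0.034) and values relative to the other members (adjusted p = 0.0396), and leaving out single arrays gave 0 to 1, with 1 without dorsal replicate 3. By the F test the count was 0 to 1 when single arrays were left out, with RpL37A called without wild type PBS replicate 1. Members' medians over the alternatives that leave out an array ran from -0.07 to 0.20 for E. coli against PBS, -0.25 to -0.12 for Relish, -0.14 to 0.01 for Dif and -0.11 to 0.07 for dorsal. Quantile normalization put them at -0.01, -0.22, -0.05 and -0.02, with 18, 26, 23 and 19 of 35 members below 0, against 10, 30, 21 and 19 as deposited, and 52.2%, 48.5%, 48.9% and 49.1% of all probe sets. Reading values relative to the members moved the median of all probe sets from 0.09 to 0.24 in Relish. Of 3041 alternative values of the members named by rule, without those added after their values were seen, 7 gained a call. None could lose one, since no member was called in the fit reported. Over all probe sets the calls ranged from 2 to 87 for E. coli against PBS (18 in the fit reported), 94 to 293 for Relish (215), 110 to 381 for Dif (306), 71 to 674 for dorsal (402), 61 to 136 for Relish against Dif (131), 71 to 381 for Relish against dorsal (348), 102 to 732 for Dif against dorsal (592) and 221 to 1232 by the F test (835). The fewest in all mutants against wild type came with arrays of 1 title number averaged, which leaves fewer samples. Arrays with the same replicate number deviated together with correlations of 0.34, 0.18 and 0.08 in wild type and -0.09 to 0.15 in the other comparisons. The wild type values were all positive, and in both wild type groups the housekeeping medians rose in the replicate order 1, 3, 2. For E. coli against PBS the replicate block gave the 87 calls over all probe sets, with no member among them. The fit reported did not take the numbers as pairs. The cause of these changes was not tested. Signals near the pseudocount limit the paralogs.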
